A study of Homo sapiens with 22 samples.

Results

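The oxidative phosphorylation genes described here are the protein-coding genes of the human table whose symbols name subunits of respiratory complexes I to IV, together with the mitochondrial subunits of the ATP synthase. They were taken by symbol: MT-ND, MT-CO, MT-ATP and MT-CYB genes, NDUFA, NDUFB, NDUFC, NDUFS, NDUFV, UQCR and COX4 to COX8 genes, and SDHA, SDHB, SDHC and SDHD, without the NDUFAF assembly factors. This gave 83 of 58735 genes, of which 19951 are protein coding. Of the 83 members, 13 are encoded by mitochondrial DNA and 70 by nuclear DNA. The samples are 22 bulk RNA-seq libraries of xenograft tumours grown from H3122, an ALK-positive non-small cell lung cancer cell line. The treated groups received alectinib, an ALK inhibitor. In hHGF-NSG hosts, whose name marks a human HGF gene in NSG mice, there were 3 therapy-naive tumours, 4 tumours after 2 weeks and 3 tumours after 6 weeks of alectinib. In NSG hosts there were 4 tumours each in the naive state, at 2 weeks and at 6 weeks. All groups share the H3122 line and its ALK alteration. The labels give neither the promoter behind human HGF nor the animals' age, and they do not say that the tumours came from separate animals, so each p-value reflects the spread among these libraries, which may be technical.

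Oxidative phosphorylation passes electrons from NADH and succinate through complexes I to IV of the inner mitochondrial membrane and uses the proton gradient that this builds to make ATP at the ATP synthase, complex V. Mitochondrial DNA encodes core membrane subunits of complexes I, III, IV and V and is transcribed as long polycistronic RNAs, which are cut into single messages whose steady levels depend on their stability. All other subunits, including the whole of complex II, are transcribed in the nucleus and imported, so the 2 genomes have to be expressed together to build the chain.

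Human libraries held 10688632 to 19065656 reads. Epithelial markers fitted the label: 8 of 8 were at 1 FPKM or more in every group, where FPKM is fragments per kilobase of exon, scaled to the size of the library. Their summed level was 1087 to 1577 FPKM over the treated libraries and 2607 to 4052 FPKM over the naive ones. The 8 leukocyte markers summed to 0.497 to 1.82 FPKM and the 7 skeletal muscle markers to 0.219 to 2.13 FPKM, with none of either list at 1 FPKM in any group. Fibroblast markers summed to 5.22 to 16.4 FPKM in treated and 26.8 to 112 FPKM in naive libraries, with 2 of 8 genes at 1 FPKM or more in naive and 1 in treated groups. Endothelial markers summed to 4.58 to 19.9 FPKM and adipocyte markers to 0.0461 to 1.73 FPKM, with 2 of the 5 adipocyte markers at 0 in every library. The part of these markers in the results below was not tested. In bulk tumours, fewer cells of a type and less RNA per cell cannot be told apart. Human HGF had 13 to 79 reads in the hHGF-NSG libraries and 0 to 6 reads in 11 of the NSG libraries, but 43 reads in the library labelled NSG naive replicate 1. NSG results are therefore also given without that library where it matters.

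The mitochondrial messages were among the most abundant in the tumours. Ranked by mean level over all libraries, MT-CO1 was the first of all genes tested at 10412 FPKM, MT-CO3 the second at 8262 FPKM and MT-ATP6 the third at 8118 FPKM, and MT-ATP8 was lowest of the 13 at 379 FPKM. Together they made up 24.9, 23.8 and 10.4% of all FPKM in the hHGF-NSG naive tumours, 23.7, 21.8, 22.6 and 26.1% after 2 weeks and 31.2, 21.9 and 32.01% after 6 weeks. In NSG hosts they made up 19.4, 22.1, 15.2 and 16.7% in naive tumours, 14.5, 13.3, 26.5 and 25.1% after 2 weeks and 24.8, 25.1, 27.9 and 28.5% after 6 weeks. The NSG tumours at 6 weeks were thus all above the NSG naive tumours, with means of 26.6 ± 1.89% and 18.3 ± 3.06% (SD, n = 4 each). In hHGF-NSG the share averaged 28.3 ± 5.64% at 6 weeks and 19.7 ± 8.09% in naive tumours (SD, n = 3 each), and the groups overlapped.

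**Figure D1:**
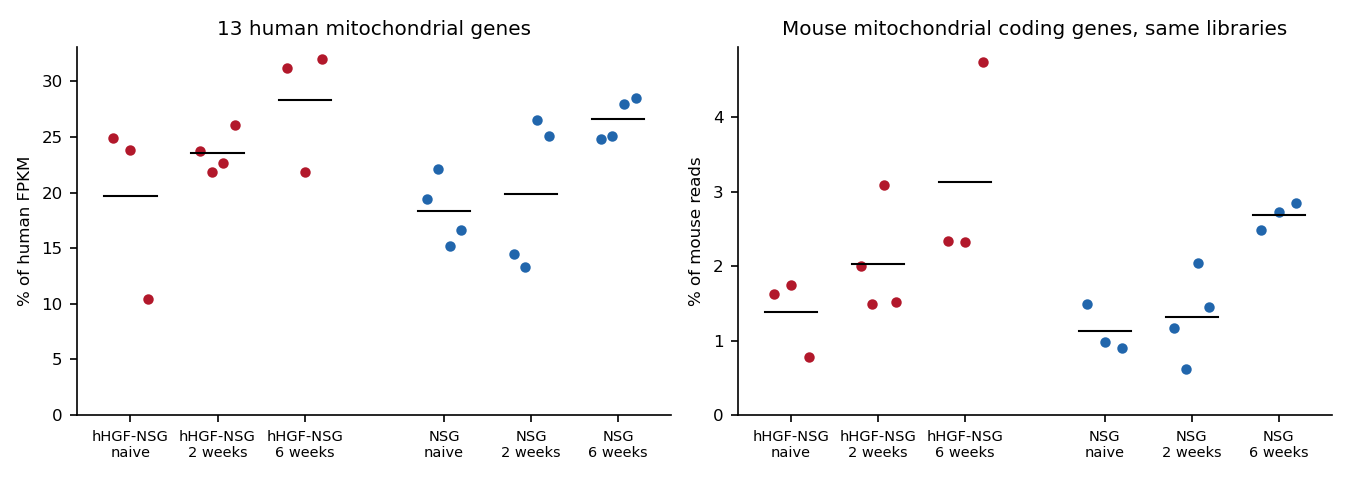
Left, share of the 13 mitochondrial-encoded human genes in all human FPKM of each library (percent). Right, share of all mouse genes listed on the mitochondrial chromosome, titled coding genes in the panel, in the mouse reads of the same libraries (percent, 20 libraries). Points are tumours and bars are group means. The 4 NSG tumours at 6 weeks lie between 24.8 and 28.5%, above all NSG naive tumours, while hHGF-NSG naive replicate 3 is the lowest of all libraries at 10.4%.

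Replicates differed more in the mitochondrial than in the nuclear members. The pooled standard deviation within groups, on the log2(FPKM + 1) scale, had a median of 0.52 over the 13 mitochondrial members, 0.21 over the 60 nuclear members tested and 0.19 over all 16029 genes tested. The hHGF-NSG naive replicate 3 stood low, and the NSG tumours at 2 weeks split into 2 low and 2 high libraries. Over the 20 libraries that both species' tables hold, the library with the highest human mitochondrial share also had the highest mouse mitochondrial share in 4 of 6 groups, and the lowest libraries coincided in 5. In 2 of those 4 groups, NSG naive and NSG 6 weeks, the library with the highest human share of all was not in the mouse table. The mouse share was taken over every mouse gene listed on the mitochondrial chromosome and in reads. It thus differs in gene set and unit from the human share, which is in FPKM. Mouse mitochondrial genes took 0.779 to 1.74% of mouse reads in hHGF-NSG naive tumours, 1.49 to 3.09% after 2 weeks and 2.32 to 4.74% after 6 weeks. In NSG hosts they took 0.897 to 1.49% in naive tumours, 0.622 to 2.04% after 2 weeks and 2.49 to 2.85% after 6 weeks. Mouse reads made up 6.81 to 13.5% of all reads in hHGF-NSG naive tumours, 8.71 to 17.4% after 2 weeks and 24.3 to 28.95% after 6 weeks. In NSG hosts these shares were 5.50 to 12.0% for naive tumours, 12.1 to 20.2% after 2 weeks and 16.9 to 21.9% after 6 weeks. The part of these host reads in the human values was not tested.

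Set against the nuclear members, the mitochondrial ones stood higher at 6 weeks than in naive tumours, without overlap in NSG hosts. The mean log2 level of the 13 mitochondrial members exceeded that of the nuclear members tested by 7.72 to 7.96 in the NSG tumours at 6 weeks, and by 6.76 to 7.34 in the NSG naive tumours. These ranges did not overlap, and the means differed by 0.73. In hHGF-NSG the same gap was 7.38 to 8.09 at 6 weeks and 6.31 to 7.69 in naive tumours, which overlapped, with a difference of 0.61 between the means. At 2 weeks the gap averaged 7.46 in hHGF-NSG and 7.13 in NSG tumours, against naive means of 7.22 and 7.09 in the same hosts. With medians over members in place of means, the difference at 6 weeks was 0.73 in NSG and 0.92 in hHGF-NSG, so the order of the hosts depends on that choice. Each side alone overlapped between the NSG tumours at 6 weeks and the naive ones. The mean log2 level of the mitochondrial members was 12.098 to 12.56 at 6 weeks and 11.51 to 12.17 in naive tumours, and summed nuclear members were at 1811 to 2538 FPKM at 6 weeks and 2410 to 2761 FPKM in naive tumours.

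Few mitochondrial messages were called changed by the test across all genes. Their spread within groups was wider than that of all genes, with a median SD of 0.52 against 0.19. A change of a given size was therefore harder to call, and a missing call does not show a level message. With limma on log2(FPKM + 1) and an adjusted p of 0.05, 1 of 13 rose in hHGF-NSG tumours at 2 weeks, 2 at 6 weeks, none in NSG tumours at 2 weeks and 3 at 6 weeks, and none fell. The share of all genes tested that was called in either direction was 54.1%, 51.3%, 56.1% and 57.6% in these comparisons, and 27.5%, 25.9%, 28.1% and 28.8% were called higher. In NSG tumours at 2 weeks, no mitochondrial member passed an unadjusted p of 0.05 in limma, and 2 were called lower with limma voom on recovered reads. The median log2 change of the 13 was 0.10 and 0.39 in hHGF-NSG at 2 and 6 weeks, and -0.21 and 0.48 in NSG, beside medians of 0.03, 0.02, 0.03 and 0.03 over all genes tested. Rescaling to the FPKM of nuclear genes raised the median of all genes by 0.15 to 0.23, and the NSG 2-week median of the 13 then stood at 0.09, still 0.15 below that of all genes.

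MT-ND3, a core membrane subunit of complex I, showed the largest change of the 13. Its level was 8071, 6782, 7657 and 8332 FPKM in hHGF-NSG tumours at 2 weeks and 12495, 7066 and 15173 FPKM at 6 weeks, against 5665, 4404 and 1147 FPKM in naive tumours. In NSG hosts it was 4159, 2937, 7503 and 6574 FPKM at 2 weeks and 7411, 8386, 12318 and 12049 FPKM at 6 weeks, against 3410, 5452, 2554 and 2920 FPKM in naive tumours. The treated tumours lay above every naive tumour of their host, except in NSG at 2 weeks, where the groups overlapped. MT-ND3 rose by 1.33 ± 0.43 (log2, SE) at 2 weeks and 1.85 ± 0.46 at 6 weeks in hHGF-NSG, with adjusted p of 0.0134 and 0.00224, and by 1.51 ± 0.40 at 6 weeks in NSG with an adjusted p of 0.003. At 2 weeks in NSG its change was 0.53 ± 0.40 with an adjusted p of 0.27. Without hHGF-NSG naive replicate 3, the 2-week change in hHGF-NSG was 0.62 with an adjusted p of 0.164, and with no filter on low values its adjusted p was 0.112.

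MT-ND2, another core membrane subunit of complex I, had 8800, 5043 and 7790 FPKM in hHGF-NSG tumours at 6 weeks, against 5151, 4223 and 1426 FPKM in naive ones. In NSG it had 5490, 5676, 7084 and 6911 FPKM at 6 weeks, against 3348, 4209, 2586 and 2942 FPKM in naive tumours, with no overlap there. It rose at 6 weeks by 1.16 ± 0.39 in hHGF-NSG and 0.96 ± 0.34 in NSG, with adjusted p of 0.0186 and 0.0215 in limma. The hHGF-NSG call was lost without naive replicate 3 (0.59, adjusted p = 0.167), without 6-week replicate 1 (adjusted p = 0.0764) or without 6-week replicate 3 (adjusted p = 0.0552), and the NSG call without naive replicate 3 (0.85, adjusted p = 0.0624). With no filter on low values both MT-ND2 calls were lost, with adjusted p of 0.135 and 0.146. MT-ND6, the single subunit encoded on the other strand of the mitochondrial genome, rose at 6 weeks in NSG by 1.01 ± 0.28 with an adjusted p of 0.00461. It had 2790, 2712, 5072 and 3364 FPKM there, against 2525, 1894, 1168 and 1412 FPKM in NSG naive tumours, and the highest of these naive values belongs to the library with human HGF reads. Whether the counting used strand is not given in the sources used here, so reads of MT-ND6 and of messages across from it may not be separated.

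**Figure D2:**
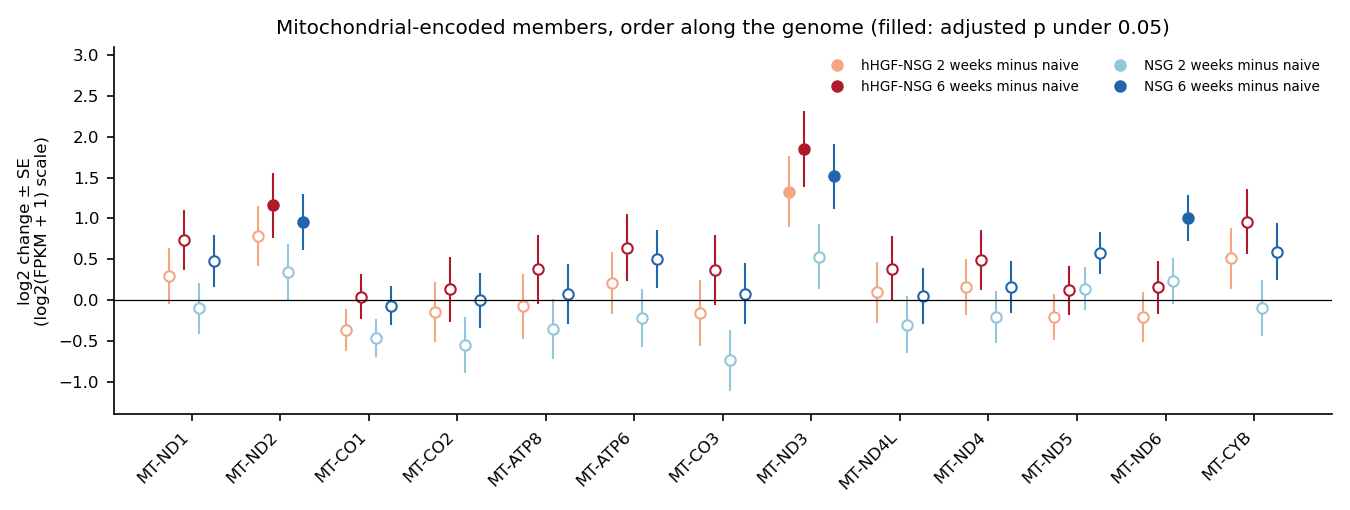
Change of each mitochondrial-encoded member against naive tumours of the same host (log2(FPKM + 1) scale, points with SE, filled where the adjusted p was under 0.05), in order along the mitochondrial genome. MT-ND3 has the largest changes, up to 1.85, and the 3 MT-CO genes lie between -0.74 and 0.37.

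The remaining 10 mitochondrial members did not pass the test in any treatment comparison. They encode MT-ND1, MT-ND4, MT-ND4L and MT-ND5 of complex I, cytochrome b of complex III (MT-CYB), the catalytic subunits of cytochrome c oxidase (MT-CO1, MT-CO2, MT-CO3) and ATP synthase subunits (MT-ATP6, MT-ATP8). MT-CYB came nearest at 0.96 ± 0.40 in hHGF-NSG at 6 weeks (adjusted p = 0.0523). MT-CO1 was at 12064, 9563 and 13954 FPKM in hHGF-NSG tumours at 6 weeks, against 14334, 14653 and 7020 FPKM in naive ones, and at 10326, 10035, 11643 and 10846 FPKM in NSG tumours at 6 weeks, against 11751, 13420, 9833 and 10244 FPKM in naive ones. MT-CO3 had the lowest change of the 13, -0.74 ± 0.37 in NSG at 2 weeks (adjusted p = 0.1). Nuclear copies of mitochondrial genes also took reads, MTATP6P1 a group mean of 308 to 530 FPKM and MTND2P28 one of 15.2 to 38.0 FPKM, so MT-ATP6 and MT-ND2 are uncertain by that much.

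The balance among some of the mitochondrial messages differed between treated and naive tumours. Each gene was taken relative to the mean log2 level of the 13 in its own library. This takes out any factor common to the 13 and library scaling, but not a balance that varies with the mitochondrial level. The values are centred on the same 13 genes, so a gain of some lowers the others. On that measure MT-ND3 was higher by 1.16 and 1.28 at 2 and 6 weeks in hHGF-NSG and by 0.67 and 1.06 in NSG, and MT-ND2 by 0.61, 0.59, 0.49 and 0.50. MT-CO1 was lower by 0.54, 0.53, 0.33 and 0.53 and MT-CO2 by 0.31, 0.44, 0.41 and 0.46. For these genes the treated and naive tumours did not overlap in any of the 4 comparisons, of which the 2 within a host share their naive tumours. The relative level of MT-ND3 was -0.03, -0.16 and -0.66 in hHGF-NSG naive tumours, at mitochondrial shares of 24.9, 23.8 and 10.4% of FPKM. It also followed the order of the share in hHGF-NSG and NSG tumours at 6 weeks, but not in the other groups. The part of the mitochondrial level in the balance was not tested. In all, 8 and 6 of the 13 genes did not overlap in hHGF-NSG and 6 and 7 in NSG, beside 55.8%, 57.2%, 48.2% and 47.6% of all genes tested on the log2(FPKM + 1) scale. These counts are near the shares of all genes and do not set the 13 apart. The values of all genes were not centred in this way, so the 2 measures are unlike. MT-ND6 differed on this measure by -0.37 and -0.41 in hHGF-NSG, where the groups did not overlap, and by 0.37 and 0.55 in NSG, where they did. That overlap rested on the naive library with human HGF reads, without which the NSG differences were 0.52 and 0.71 and the groups did not overlap.

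The ratio of MT-ND3 to MT-CO1, chosen after the values were seen and so given without a test, was 0.395, 0.301 and 0.163 in hHGF-NSG naive tumours, 0.875, 0.888, 0.953 and 0.785 at 2 weeks and 1.04, 0.739 and 1.09 at 6 weeks. In NSG it was 0.290, 0.406, 0.260 and 0.285 in naive tumours, 0.649, 0.494, 0.671 and 0.637 at 2 weeks and 0.718, 0.836, 1.06 and 1.11 at 6 weeks. Every treated tumour lay above every naive tumour, the low hHGF-NSG naive replicate 3 included. The ratio of MT-ND2 to MT-CO1 behaved alike, at 0.414 to 0.729 in treated and 0.203 to 0.359 in naive tumours. In the mouse reads of the same libraries the ratio of mt-Nd2 to mt-Co1 was also higher on average in treated tumours, by 1.16 and 1.13 times at 2 and 6 weeks in hHGF-NSG and by 1.12 and 1.27 times in NSG. Treated and naive tumours did not overlap for it in NSG at 6 weeks, with 0.206 to 0.257 at 6 weeks and 0.167 to 0.196 in naive tumours, and overlapped in the other comparisons. The ratio of mt-Cytb to mt-Co1 averaged 0.591 and 0.562 at 2 and 6 weeks in hHGF-NSG and 0.530 and 0.554 in NSG, against naive means of 0.459 and 0.454 in the same hosts, with overlap in NSG at 2 weeks alone. Whether the shift differs in size between human and host reads was not tested.

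**Figure D3:**
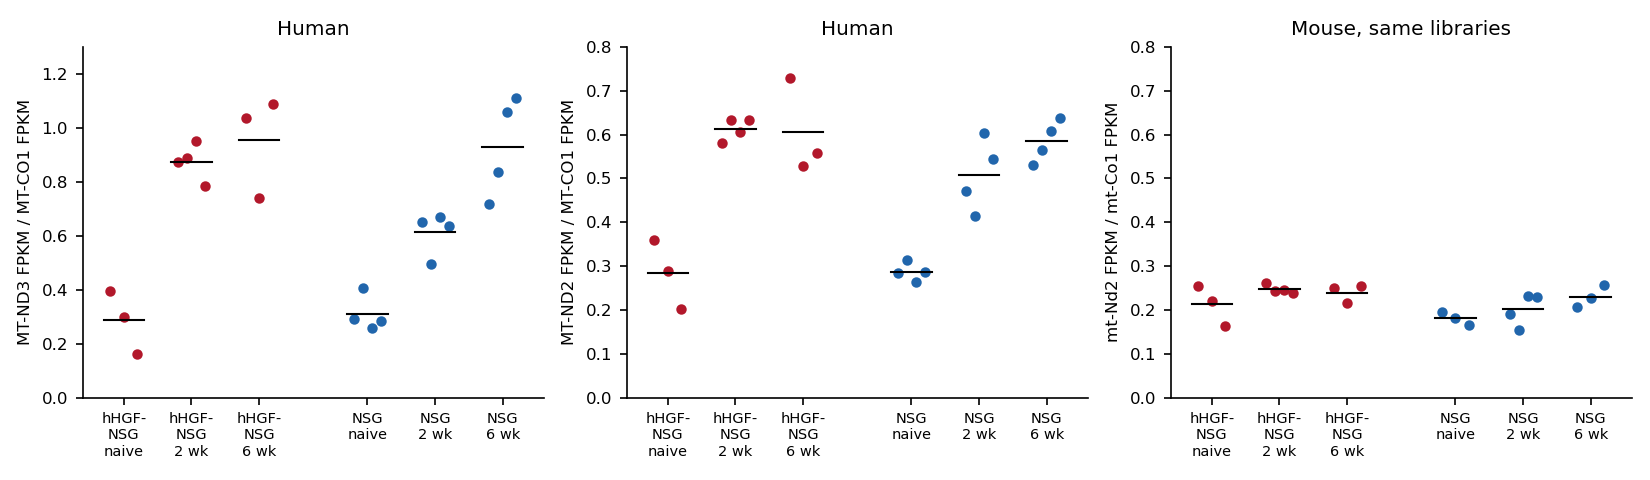
Ratios of FPKM within single libraries: MT-ND3 to MT-CO1 and MT-ND2 to MT-CO1 in human reads, and mt-Nd2 to mt-Co1 in mouse reads of the same tumours. Points are tumours, bars group means. In human reads no treated tumour falls within the naive range. The mouse ratio lies between 0.154 and 0.261, with treated means above the naive mean of the same host and no overlap in NSG at 6 weeks.

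The annotated 3′ ends of these genes are shown because human mitochondrial genes differ there: several lack a complete stop codon in the DNA, which the poly(A) tail supplies. An annotated end need not be the end of the message. From the GENCODE 29 transcripts (GRCh38, forward strand), the last 30 bases are given with the final codon, or the bases after the last whole codon, in capitals. The first pair are the messages that gained on the others, the second pair those that lost.
MT-ND3, chrM:10375-10404: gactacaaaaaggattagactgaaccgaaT
MT-ND2, chrM:5482-5511: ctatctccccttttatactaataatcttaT
MT-CO1, chrM:7416-7445: ttcgaagaacccgtatacataaaatctAGA
MT-CO2, chrM:8240-8269: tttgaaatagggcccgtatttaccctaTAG
MT-ND3 (346 bases) and MT-ND2 (1042 bases) end in a lone T, and MT-CO1 (1542 bases) and MT-CO2 (684 bases) in a whole codon. The lone T is not particular to the first pair: MT-CO3, MT-ND4 and MT-CYB end in it as well. MT-ATP8 and MT-ATP6 share 46 bases, chrM:8527-8572, so reads there belong to both; the shared stretch, in capitals after 10 bases of MT-ATP8, runs as follows.
MT-ATP8 and MT-ATP6: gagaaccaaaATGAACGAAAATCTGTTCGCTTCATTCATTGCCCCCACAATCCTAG

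The large ribosomal RNA of the mitochondrion, which is no member, fell in every treatment comparison. MT-RNR2 had 2106, 1401, 1785 and 1798 FPKM in hHGF-NSG tumours at 2 weeks and 2178, 1921 and 3892 FPKM at 6 weeks, against 5099, 4679 and 3571 FPKM in naive tumours. Only 6-week replicate 3 reached the naive range. MT-RNR2 fell by 1.33 ± 0.24 and 0.80 ± 0.26 there, and by 1.17 ± 0.22 and 0.61 ± 0.22 in NSG, with adjusted p between 9.66e-05 and 0.025 in limma. MT-RNR1, the small ribosomal RNA, fell at 2 weeks in both hosts, by 1.16 ± 0.27 in hHGF-NSG and 1.22 ± 0.25 in NSG.

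Of 22 nuclear genes that transcribe and handle mitochondrial RNA, 0 rose and 11 fell in hHGF-NSG at either time, and 2 rose and 10 fell in NSG at either time. All genes tested were called higher in 27.5%, 25.9%, 28.1% and 28.8% and lower in 26.6%, 25.5%, 28% and 28.8% of cases in the 4 comparisons. At 2 weeks, LRPPRC, which stabilises mitochondrial messages, was at 17.1 ± 1.38 FPKM in hHGF-NSG, against 36.1 ± 0.994 FPKM in naive tumours (SD, n = 4 and 3), and at 18.7 ± 0.574 FPKM in NSG, against 32.6 ± 1.67 FPKM (SD, n = 4 each). It fell by 1.04 and 1.03 at 2 and 6 weeks in hHGF-NSG and by 0.77 and 0.65 in NSG. GRSF1, an RNA-binding protein of mitochondrial RNA granules, fell by 0.89, 0.93, 0.82 and 0.81 in the same order, and TFAM, the transcription and packaging factor of mitochondrial DNA, by 0.76, 0.79, 0.71 and 0.56. All of these had an adjusted p of 0.000423 or less in limma. Of 10 genes that maintain mitochondrial DNA, 0, 0, 1 and 2 rose and 4, 2, 4 and 5 fell in hHGF-NSG at 2 and 6 weeks and NSG at 2 and 6 weeks.

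Of the 70 nuclear members, 60 were tested. The other 10 were below 1 FPKM in all or nearly all libraries: NDUFA7, NDUFC2-KCTD14, NDUFV2, UQCRHL, COX4I2, COX6A2, COX6B2, COX7A1, COX7B2 and COX8C. NDUFC2-KCTD14 and COX7B2 were at 0 reads in every library, which for COX7B2 allows up to 3 reads in each. Annotated exons of NDUFC2-KCTD14 overlap KCTD14 and NDUFC2 over 100% of their length, so its 0 need not mean absence. For some members the level depends on how reads over neighbouring genes were assigned: annotated exons of NDUFV2 overlap other genes over 28.4% of their length, those of NDUFA7 over 33.5%, NDUFA13 over 21%, NDUFB8 over 48.5%, NDUFS7 over 49.1% and COX8A over 34.5%.

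Most nuclear members changed by little. In hHGF-NSG tumours 6 of 60 rose and 7 fell at 2 weeks, and 9 rose and 9 fell at 6 weeks. In NSG tumours 2 rose and 12 fell at 2 weeks, and 3 rose and 24 fell at 6 weeks. The share of members called was 21.7%, 30%, 23.3% and 45%, beside the 54.1%, 51.3%, 56.1% and 57.6% of all genes, and all genes were called lower in 26.6%, 25.5%, 28% and 28.8%. The share of members called lower stood above that of all genes in NSG at 6 weeks, with 24 of 60, and below it in the other comparisons. Apart from NDUFA4L2 and COX8A, every nuclear member tested changed by less than 1 on the log2 scale in each comparison. The balance of directions depended on scaling: after rescaling to the FPKM of nuclear genes, 21, 18, 20 and 12 rose and 3, 5, 5 and 9 fell. That rescaling raised the median of all genes as well, by 0.15 to 0.23. Relative to the median of all genes, the nuclear median was -0.04 and -0.03 in hHGF-NSG and -0.17 and -0.26 in NSG as deposited, and 0.01, 0.00, -0.12 and -0.20 after rescaling, so the hHGF-NSG medians turn sign and the NSG ones do not.

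**Figure D4:**
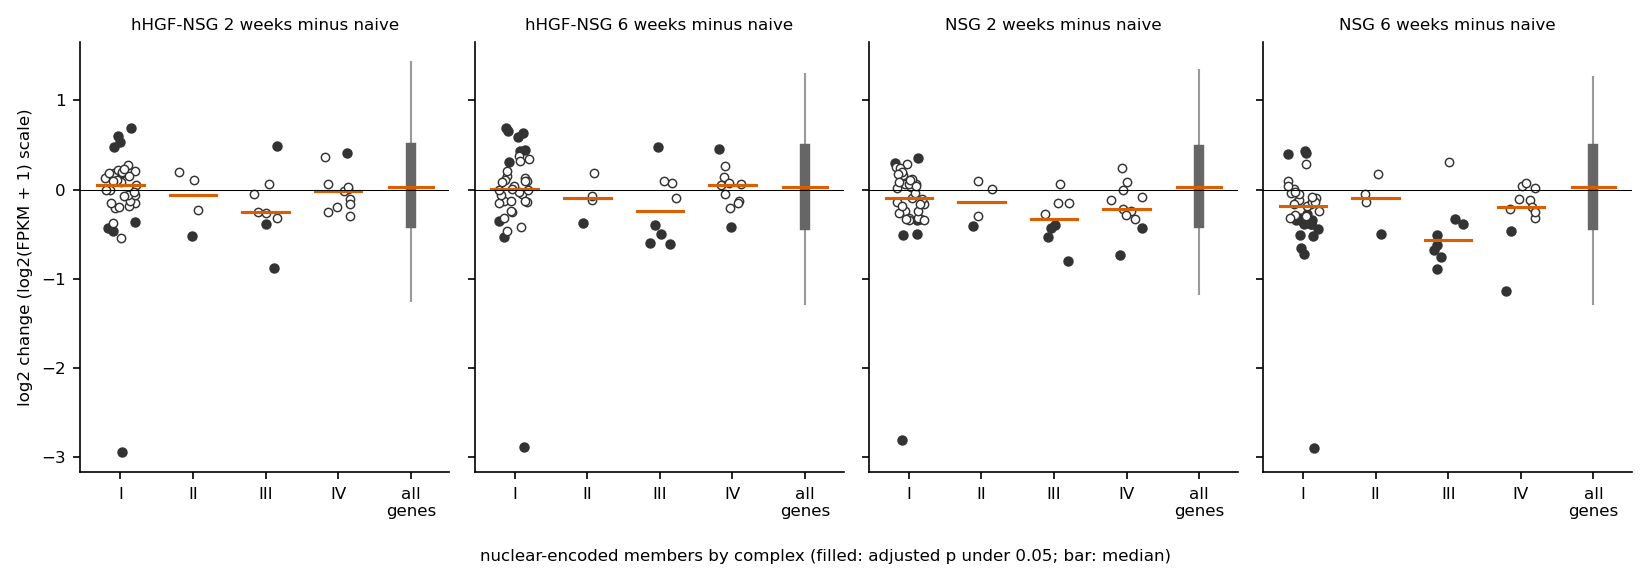
Changes of the 60 nuclear members tested, by complex, in each treatment comparison (log2(FPKM + 1) scale, filled where the adjusted p was under 0.05, bars are medians). The grey bar and line give the middle 50% and middle 90% of all genes tested. NDUFA4 and NDUFA4L2 are drawn with complex I by their symbols, NDUFA4L2 as the point near -2.9, and complex III has the lowest median in every comparison.

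Among members with complex I symbols, 37 nuclear ones were tested, of which 4, 7, 2 and 3 rose and 4, 3, 5 and 14 fell in hHGF-NSG at 2 and 6 weeks and in NSG at 2 and 6 weeks. These include NDUFA4 and NDUFA4L2, which are no complex I subunits. Without them 35 were tested and 3, 2, 4 and 13 fell, with the same numbers rising. Of all genes, 27.5%, 25.9%, 28.1% and 28.8% were called higher and 26.6%, 25.5%, 28% and 28.8% lower. The complex I counts lay below these shares, except for the members that fell in NSG at 6 weeks. NDUFA4L2, a hypoxia-induced relative of NDUFA4 that is known to restrain respiration, showed by far the largest change of all members. It had 0.0205, 0.245, 0.216 and 0.200 FPKM in hHGF-NSG tumours at 2 weeks and 0.219, 0.143 and 0.292 FPKM at 6 weeks, against 10.4, 8.03 and 6.07 FPKM in naive ones. In NSG tumours it had 0.221, 0.231, 0.0841 and 0.201 FPKM at 2 weeks and 0.0777, 0.0825, 0.273 and 0.0415 FPKM at 6 weeks, against 5.42, 5.64, 9.22 and 9.79 FPKM. Treated tumours thus held 1 to 13 reads of it and naive tumours 208 to 459 reads. It fell by 2.95 ± 0.17 and 2.89 ± 0.19 at 2 and 6 weeks in hHGF-NSG and by 2.81 ± 0.16 and 2.89 ± 0.16 in NSG, with adjusted p of 8.31e-11 or less in limma. Because of the pseudocount these values understate the ratio of means, which was 47.9, 37.5, 40.8 and 63.4 in favour of naive tumours. NDUFA4L2 passed the filter on low values only through the 7 naive tumours, so a difference was built into its being tested. NDUFA4, which despite its name works as a subunit of complex IV, was at 38.5 to 51.0 FPKM in hHGF-NSG tumours at 2 weeks and at 28.1 to 46.2 FPKM in naive ones and passed the test in no comparison.

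Of 16 pyruvate dehydrogenase kinases and hypoxia-driven switches, 3, 3, 4 and 5 rose and 9, 7, 9 and 8 fell, which is 75%, 62.5%, 81.25% and 81.25% called, beside 54.1%, 51.3%, 56.1% and 57.6% of all genes. LDHA, lactate dehydrogenase A, fell by 4.41, 4.33, 4.14 and 4.15, and SLC2A1, the glucose transporter GLUT1, by 3.00, 3.12, 2.83 and 3.07. CA9, a carbonic anhydrase much used as a hypoxia marker, was at 0 in every hHGF-NSG 2-week and NSG 6-week tumour, against means of 8.60 FPKM in hHGF-NSG and 7.71 FPKM in NSG naive tumours. It reached 0.0818 FPKM in hHGF-NSG at 6 weeks and 0.465 FPKM in NSG at 2 weeks. CA9 passed the filter on low values only through naive tumours, so a difference was built into its being tested and counted here.

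Among the remaining complex I members, NDUFS1, the largest subunit of the electron-input arm, was at 7.59, 7.43, 6.93 and 8.27 FPKM in hHGF-NSG tumours at 2 weeks, against 10.8, 11.4 and 10.3 FPKM in naive tumours. It fell by 0.47 ± 0.09 and 0.53 ± 0.10 at 2 and 6 weeks in hHGF-NSG and by 0.50 ± 0.08 and 0.34 ± 0.08 in NSG, with no overlap between treated and naive tumours. NDUFA10, an accessory subunit, fell by 0.37, 0.35, 0.32 and 0.32, each ± 0.07 or 0.08. NDUFB1, a small accessory subunit, rose by 0.48 ± 0.14, 0.59 ± 0.15, 0.35 ± 0.13 and 0.40 ± 0.13. Its level was 22.6, 23.0 and 23.2 FPKM in hHGF-NSG tumours at 6 weeks, against 16.2, 16.2 and 12.6 FPKM in naive ones, and 18.4, 21.3, 21.6 and 22.7 FPKM in NSG tumours at 6 weeks, against 16.9, 16.9, 15.4 and 13.6 FPKM. The NSG 2-week call of NDUFB1 was lost without NSG 2-week replicate 1, its highest tumour (0.19, adjusted p = 0.131), and without NSG naive replicate 3 or 4 (adjusted p = 0.0508 and 0.0875), and with no filter on low values (adjusted p = 0.0531). NDUFB7, the nuclear complex I member with the highest mean level, was at 179, 184, 153 and 235 FPKM in hHGF-NSG at 2 weeks, against 132, 98.0 and 162 FPKM in naive tumours, and rose by 0.53 ± 0.19 at 2 weeks and 0.63 ± 0.20 at 6 weeks there. Both NDUFB7 calls were lost without hHGF-NSG naive replicate 2, with adjusted p of 0.163 and 0.0931, and the 2-week call without 2-week replicate 4 (adjusted p = 0.0754). After rescaling to nuclear FPKM, NDUFA10 passed the test in no comparison and NDUFS1 only in hHGF-NSG at 6 weeks and NSG at 2 weeks.

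**Figure D5:**
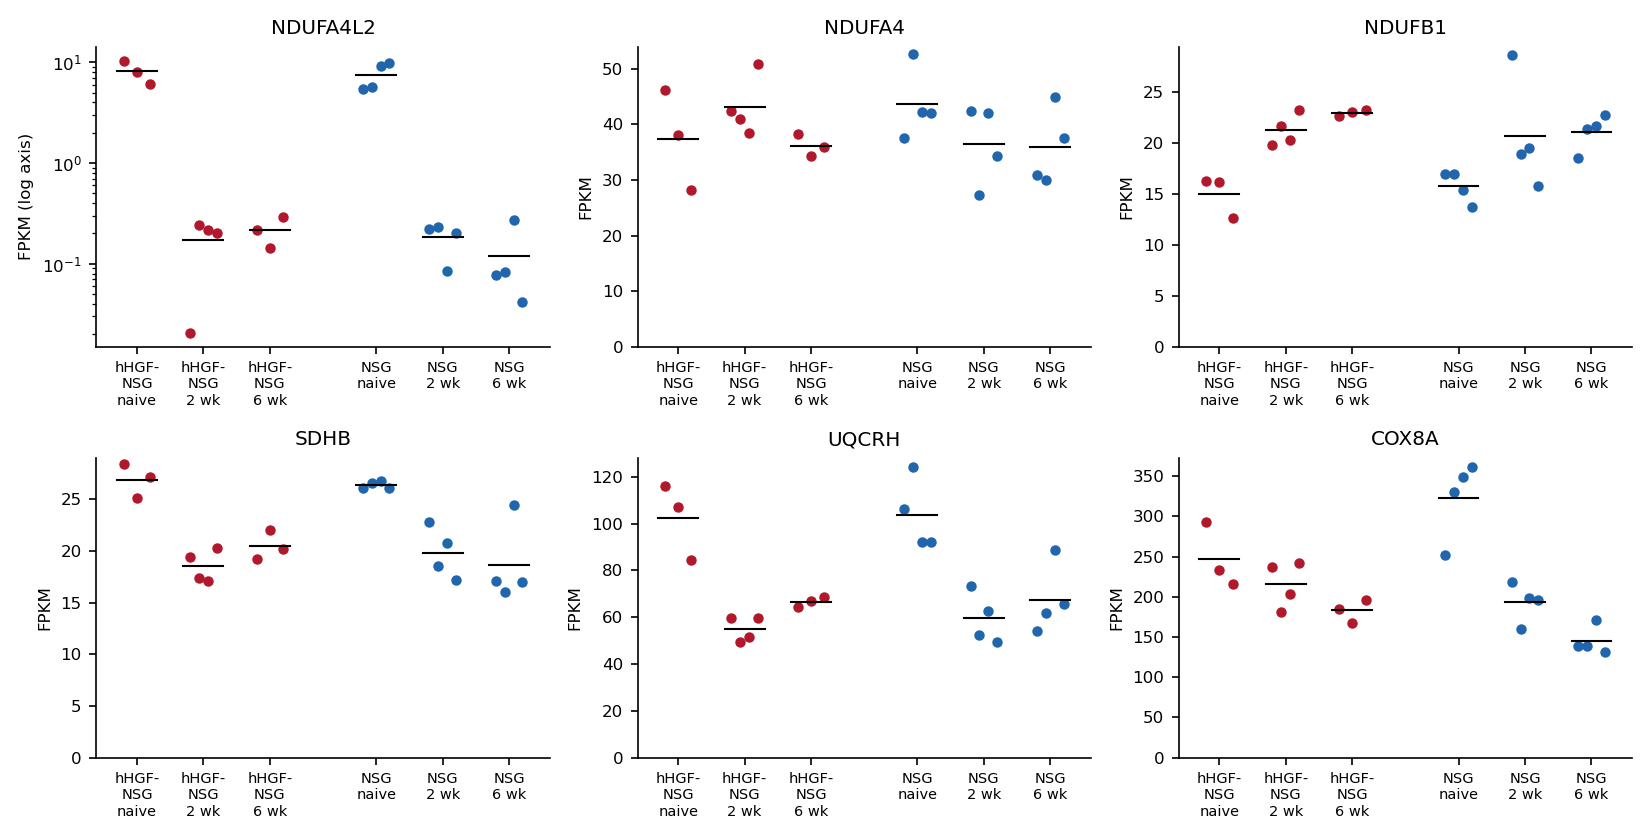
Level of 6 nuclear members in every tumour (FPKM, log axis for NDUFA4L2 only). Points are tumours, bars group means. Treated tumours hold at most 0.292 FPKM of NDUFA4L2 and naive tumours at least 5.42 FPKM, while the other genes differ by much less and NDUFA4 overlaps throughout.

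Complex II, succinate dehydrogenase, has 4 subunits, all nuclear, and only SDHB passed the test. Of all genes, 54.1%, 51.3%, 56.1% and 57.6% were called in the treatment comparisons. SDHB, the iron-sulfur subunit, was at 19.4, 17.4, 17.1 and 20.3 FPKM in hHGF-NSG tumours at 2 weeks and 19.2, 22.02 and 20.2 FPKM at 6 weeks, against 28.4, 25.2 and 27.2 FPKM in naive tumours. In NSG it was at 22.8, 18.5, 20.8 and 17.2 FPKM at 2 weeks and 17.1, 16.0, 24.5 and 17.04 FPKM at 6 weeks, against 26.1, 26.6, 26.8 and 26.2 FPKM. No treated tumour reached its naive range. SDHB fell by 0.52 ± 0.12 and 0.38 ± 0.12 in hHGF-NSG and by 0.40 ± 0.11 and 0.50 ± 0.11 in NSG, with adjusted p of 0.000865, 0.0155, 0.00338 and 0.000546. The hHGF-NSG 6-week call was lost without naive replicate 1 (adjusted p = 0.0553) or 6-week replicate 1 (adjusted p = 0.0603), and after rescaling to nuclear FPKM (adjusted p = 0.105), as was the NSG 2-week call (adjusted p = 0.219). The flavoprotein SDHA changed by -0.14 to 0.10, and the membrane anchors SDHC and SDHD by 0.01 to 0.20 and -0.29 to -0.04. Missing the test does not show that these 3 stayed level, since their SE ran up to 0.21. After rescaling SDHC passed it in all 4 comparisons with changes of 0.26 to 0.44. SDHA passed it at 2 weeks in both hosts, with 0.36 in hHGF-NSG and 0.39 in NSG (adjusted p = 0.0162 and 0.00622). The same rescaling put the median of all genes at 0.23 and 0.18 in hHGF-NSG at 2 and 6 weeks. In NSG it put that median at 0.24 and 0.27, so these calls include a shift of all genes.

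Complex III, the cytochrome bc1 complex, had the lowest median of the nuclear groups, at -0.25 and -0.24 in hHGF-NSG and -0.33 and -0.57 in NSG. Of its 8 members tested, 2, 4, 4 and 7 fell and 1, 1, 0 and 0 rose. Of all genes, 26.6%, 25.5%, 28% and 28.8% were called lower and 27.5%, 25.9%, 28.1% and 28.8% higher. The members that fell were near the share of all genes in hHGF-NSG at 2 weeks and above it in the other comparisons. UQCRH, the hinge protein that contacts cytochrome c1, was at 59.8, 49.4, 51.5 and 59.6 FPKM in hHGF-NSG tumours at 2 weeks and 64.4, 67.1 and 68.6 FPKM at 6 weeks, against 116, 107 and 84.3 FPKM in naive tumours. In NSG it was at 73.3, 52.6, 62.8 and 49.4 FPKM at 2 weeks and 54.1, 61.6, 88.6 and 65.8 FPKM at 6 weeks, against 106, 124, 92.1 and 92.4 FPKM. It fell by 0.88 ± 0.16, 0.60 ± 0.17, 0.80 ± 0.15 and 0.63 ± 0.15, with adjusted p of 9.43e-05, 0.00571, 0.00011 and 0.00115, and UQCRHL, its near copy at 0.232 to 0.900 FPKM, was not tested. The core proteins moved the same way: UQCRC2 fell by 0.38, 0.40, 0.53 and 0.33, and UQCRC1 fell by 0.61 at 6 weeks in hHGF-NSG and by 0.39 and 0.89 in NSG. The NSG 2-week call of UQCRC1 was lost without NSG naive replicate 3 or 4 (adjusted p = 0.0618 and 0.0565). The iron-sulfur subunit UQCRFS1 fell in the same 3 comparisons as UQCRC1, by 0.50, 0.43 and 0.76. After rescaling to nuclear FPKM, UQCRC2 kept its call in NSG at 2 weeks alone, and the NSG 2-week calls of UQCRC1 (-0.096, adjusted p = 0.456) and UQCRFS1 (-0.14, adjusted p = 0.18) were lost.

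UQCR10, a small complex III subunit, was the only nuclear member called in opposite directions. It rose in hHGF-NSG by 0.49 ± 0.16 at 2 weeks and 0.47 ± 0.17 at 6 weeks and fell in NSG by 0.38 ± 0.15 at 6 weeks, while the difference in response between hosts was not called. Its levels were 56.0, 47.4 and 60.5 FPKM in hHGF-NSG tumours at 6 weeks, against 44.4, 42.3 and 31.2 FPKM in naive ones, and 35.9, 33.8, 42.5 and 39.6 FPKM in NSG tumours at 6 weeks, against 38.7, 53.0, 52.1 and 56.4 FPKM. Both hHGF-NSG calls were lost without naive replicate 3, with adjusted p of 0.104 and 0.15. The hHGF-NSG 6-week call was also lost without 6-week replicate 1 or 3 and with no filter on low values (adjusted p = 0.0675, 0.0969 and 0.0556). The NSG call was lost after rescaling to nuclear FPKM (-0.07, adjusted p = 0.65) and with no filter (adjusted p = 0.0705), so the opposite directions depend on the scaling. It was also lost without NSG naive replicate 2, 3 or 4 or 6-week replicate 1 or 2, with adjusted p of 0.0725 to 0.1.

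Promoters of 4 members are shown because SDHB, UQCRH and UQCRC2 fell and NDUFB1 rose in each treatment comparison. They run from 250 bases before to 50 after the start in RefSeq (GRCh38.p14), and 57 of the 70 nuclear members had such an entry. Capitals mark any match, on either strand, to an ETS core (CCGGAAG), the NRF1 core (a binding sequence of nuclear respiratory factor 1) or a hypoxia element core (ACGTG).
SDHB, chr1:17053983-17054282, reverse strand: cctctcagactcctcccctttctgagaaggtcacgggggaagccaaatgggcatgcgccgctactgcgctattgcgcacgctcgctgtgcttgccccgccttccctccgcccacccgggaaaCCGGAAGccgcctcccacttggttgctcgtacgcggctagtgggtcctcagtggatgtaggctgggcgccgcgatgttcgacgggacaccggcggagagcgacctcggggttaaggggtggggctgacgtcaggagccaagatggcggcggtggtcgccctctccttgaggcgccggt
UQCRH, chr1:46303448-46303747, forward strand: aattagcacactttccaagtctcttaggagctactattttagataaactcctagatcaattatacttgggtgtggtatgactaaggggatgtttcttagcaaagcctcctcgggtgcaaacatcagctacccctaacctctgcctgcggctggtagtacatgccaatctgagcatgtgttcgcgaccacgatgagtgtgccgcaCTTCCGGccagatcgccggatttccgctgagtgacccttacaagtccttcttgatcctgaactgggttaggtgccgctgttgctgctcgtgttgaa
UQCRC2, chr16:21953111-21953410, forward strand: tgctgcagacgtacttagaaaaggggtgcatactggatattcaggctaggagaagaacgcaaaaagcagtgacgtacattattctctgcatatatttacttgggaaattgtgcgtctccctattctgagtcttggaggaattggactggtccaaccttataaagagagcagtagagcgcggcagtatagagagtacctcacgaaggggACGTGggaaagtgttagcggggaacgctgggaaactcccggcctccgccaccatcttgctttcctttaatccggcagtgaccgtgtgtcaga
NDUFB1, chr14:92121657-92121956, reverse strand: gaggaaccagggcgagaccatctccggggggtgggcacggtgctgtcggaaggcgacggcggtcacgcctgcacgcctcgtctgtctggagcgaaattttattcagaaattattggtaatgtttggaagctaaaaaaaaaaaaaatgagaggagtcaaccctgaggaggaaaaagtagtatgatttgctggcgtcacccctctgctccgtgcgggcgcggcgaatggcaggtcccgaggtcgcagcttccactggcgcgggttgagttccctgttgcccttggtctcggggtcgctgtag
SDHB and UQCRH each hold 1 ETS core, UQCRC2 holds 1 hypoxia element core and NDUFB1 holds none of the motifs. Of the other members that fell in each comparison, NDUFA10 holds a hypoxia element core and no ETS core. Of the 2 promoters listed for NDUFS1, 1 holds an ETS core and the other none of the motifs. NDUFA4L2, which also fell in each comparison, had no entry and was not examined. No one of these motifs is held by all the members that fell and had an entry. Over all members with an entry, an ETS core stood in 15 of 57 (26.3%), beside 10.3% of all 35116 promoters. An NRF1 core stood in 13 (22.8%), beside 5.78%, and a hypoxia element core in 14 (24.6%), beside 21.4%. Members were counted once if any of their promoters matched, and all promoters were counted singly, which can raise the member shares. A match describes letters in this window and no binding.

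Complex IV, cytochrome c oxidase, had 11 nuclear members tested, and 1, 1, 0 and 0 rose and 0, 1, 2 and 2 fell. All of these lay below the shares of all genes, of which 27.5%, 25.9%, 28.1% and 28.8% were called higher and 26.6%, 25.5%, 28% and 28.8% lower. COX8A, a small structural subunit and the nuclear member with the highest mean level, was at 218, 160, 199 and 195 FPKM in NSG tumours at 2 weeks and 139, 139, 172 and 131 FPKM at 6 weeks, against 252, 331, 349 and 361 FPKM in naive tumours. In hHGF-NSG it was at 185, 168 and 197 FPKM at 6 weeks, against 293, 233 and 216 FPKM in naive tumours. It fell by 0.74 ± 0.14 and 1.14 ± 0.14 at 2 and 6 weeks in NSG, with adjusted p of 0.000106 and 4.5e-07, and by 0.42 ± 0.16 at 6 weeks in hHGF-NSG with an adjusted p of 0.0289. The hHGF-NSG call was lost without any of 3 single libraries of that host, with adjusted p of 0.0572 to 0.154, after rescaling to nuclear FPKM (-0.22, adjusted p = 0.152) and with no filter on low values (adjusted p = 0.0629). COX5B, which binds zinc, rose by 0.41 ± 0.14 and 0.46 ± 0.15 in hHGF-NSG, and both calls were lost without naive replicate 2 (adjusted p = 0.0754 and 0.0595) or 3 (adjusted p = 0.0719 and 0.0565), the first also without 2-week replicate 4 (adjusted p = 0.0666). COX5A fell by 0.46 ± 0.17 in NSG at 6 weeks and COX7C by 0.43 ± 0.17 in NSG at 2 weeks. After rescaling these changes were -0.15 and -0.13 with adjusted p of 0.395 and 0.462, and both calls were also lost with no filter (adjusted p = 0.0587 and 0.0839). The COX5A call was lost without NSG naive replicate 1 or 4 or 6-week replicate 1, 2 or 4, with adjusted p of 0.0513 to 0.0861, and the COX7C call without NSG naive replicate 2 or 2-week replicate 2 or 4, with adjusted p of 0.118 to 0.143.

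Where a subunit has tissue-specific forms, the tumours used the broadly expressed one. COX4I1 was at 24.9 to 41.4 FPKM over all libraries, and COX4I2, the form known from lung and low oxygen, held 0 to 5 reads. COX6A1 was at 42.0 to 80.04 FPKM, and COX6A2, the heart and muscle form, held 2 reads in 1 library and none elsewhere. COX7A2 was at 51.6 to 95.5 FPKM with COX7A1, the muscle form, at 0 to 10 reads. COX6B1 and COX7B were at 77.3 to 136 and 6.16 to 14.3 FPKM, while COX6B2 stayed at or under 0.151 FPKM, COX7B2 at 0 reads and COX8C at 0 to 7 reads. None of COX4I1, COX6A1, COX6B1, COX7A2 and COX7B passed the test in any treatment comparison.

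From 2 to 6 weeks, 7 members fell in NSG hosts and none in hHGF-NSG, and none rose in either, where 20.4% and 9.08% of all genes were called. Of all genes, 8.43% were called higher and 11.9% lower in NSG, and 2.63% higher and 6.45% lower in hHGF-NSG, so the 7 of 73 members, 9.59%, lie below the share of all genes called lower. The 6-week and 2-week tumours did not overlap for 4 of 73 members in NSG and 10 in hHGF-NSG, beside 22.4% and 22.7% of all genes. In hHGF-NSG, limma gave 1 nuclear member lower and none higher at an unadjusted p of 0.05, and voom called none. In NSG the 7 were NDUFA3, NDUFS6 and NDUFS8 of complex I, UQCRC1, UQCRQ and UQCRFS1 of complex III, and COX8A. NDUFA3, an accessory subunit, was at 9.20, 9.29, 9.52 and 10.7 FPKM at 6 weeks, against 16.5, 11.9, 15.6 and 12.2 FPKM at 2 weeks, and fell by 0.48 ± 0.11 with an adjusted p of 0.00319. NDUFS6, a zinc-binding subunit, fell by 0.54 ± 0.14 and UQCRC1 by 0.50 ± 0.13. The count was 3 without NSG 2-week replicate 1 or NSG 6-week replicate 2, 4 without 6-week replicate 1 or 4, and 12 without 6-week replicate 3. With no filter on low values UQCRQ, UQCRFS1 and COX8A lost their call, with adjusted p of 0.097, 0.0915 and 0.0874. Among mitochondrial members the changes from 2 to 6 weeks were 0.35 to 0.98 in NSG and 0.27 to 0.53 in hHGF-NSG, none of them called. voom called 2 of them higher in NSG.

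No member differed between hosts by limma with adjustment in naive tumours, at 2 weeks or at 6 weeks, where 0.0187%, 0% and 0% of all genes were called. In naive tumours 0.0125% of all genes were called higher and 0.00624% lower in hHGF-NSG. The hosts did not overlap for 1, 0 and 9 of the 73 members, beside 6.92%, 3.23% and 11.4% of all genes. At an unadjusted p of 0.05, hHGF-NSG tumours had 0 members higher and 4 lower in the naive state, 0 and 0 at 2 weeks, and 14 higher and 1 lower at 6 weeks, all nuclear, and voom called none. Median differences over the nuclear members were -0.10, 0.01 and 0.12 in the naive state, at 2 weeks and at 6 weeks. The response to alectinib was not called different between hosts for any member, nor for any of the 16029 genes. NDUFA3 came nearest: its 6-week response was 0.69 ± 0.12 in hHGF-NSG and -0.23 ± 0.11 in NSG, a difference of 0.92 ± 0.16 with an adjusted p of 0.0623. At 6 weeks 13 nuclear members had a response higher in hHGF-NSG at an unadjusted p of 0.05 and none lower. Without the library labelled NSG naive replicate 1, 1 member was called in this difference at 6 weeks. Against the remaining NSG naive tumours, 0 and 4 mitochondrial members then rose at 2 and 6 weeks, 2 and 3 nuclear members rose and 12 and 24 fell.

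CYCS, cytochrome c itself, was at 15.5 ± 1.73 FPKM in hHGF-NSG tumours at 2 weeks, against 44.2 ± 6.64 FPKM in naive ones (SD, n = 4 and 3), and at 15.4 ± 1.49 FPKM in NSG, against 42.9 ± 5.01 FPKM (SD, n = 4 each). It fell by 1.45, 1.43, 1.42 and 1.198 in hHGF-NSG at 2 and 6 weeks and NSG at 2 and 6 weeks. In the list of 15 electron carriers and coenzyme Q genes, 6, 3, 6 and 4 rose and 5, 5, 6 and 6 fell in that order, which is 73.3%, 53.3%, 80% and 66.7% called, beside 54.1%, 51.3%, 56.1% and 57.6% of all genes. PDSS1, which makes the coenzyme Q tail, fell by 0.83 to 1.27, and COQ4, needed to assemble the coenzyme Q pathway, rose by 0.50 to 1.27.

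The counts of the remaining lists stand beside 27.5%, 25.9%, 28.1% and 28.8% of all genes called higher and 26.6%, 25.5%, 28% and 28.8% called lower. Of 17 nuclear ATP synthase subunits, 1, 1, 0 and 0 rose and 4, 5, 8 and 10 fell in the same order of comparisons, with medians of -0.20, -0.15, -0.29 and -0.41, beside 0.03, 0.02, 0.03 and 0.03 over all genes. The catalytic subunit ATP5F1B fell by 0.44, 0.80, 0.58 and 0.80. Of 42 assembly factors tested, 9, 5, 9 and 8 rose and 10, 9, 12 and 18 fell, which is 45.2%, 33.3%, 50% and 61.9% called and above the share of all genes in the last comparison alone. COX16 rose by 0.50 to 1.15 and NDUFAF2 fell by 0.60 to 0.96. Of 50 mitochondrial ribosomal proteins, 3, 4, 4 and 4 rose and 20, 21, 19 and 25 fell, with MRPL37 and MRPL19 lower by 0.78 to 1.06 and MRPS25 higher by 1.202 to 1.73. Of 20 genes of pyruvate entry and the citric acid cycle, 1, 1, 0 and 1 rose and 11, 12, 13 and 15 fell, with medians of -0.36, -0.47, -0.39 and -0.37. CS, citrate synthase, fell by 0.67, 0.69, 0.86 and 0.68, and FH, fumarase, by 0.73 to 1.02. Of 15 fatty acid oxidation genes tested, 1, 3, 3 and 2 rose and 3, 4, 3 and 5 fell. Of 7 regulators of mitochondrial biogenesis tested, none rose and 4, 3, 4 and 3 fell, with a median of -0.23 to -0.45 and MYC among them with 32.2 ± 2.35 FPKM in hHGF-NSG tumours at 2 weeks, against 82.0 ± 4.24 FPKM in naive ones (SD, n = 4 and 3).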

How the data were processed

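RNA-seq values of 22 tumour libraries were used from a human table of 58735 genes, and from a mouse table of the same tumours that held 20 of them. Values are deposited as FPKM on a scaled library size, per the file headers, and each was a whole number of reads to within 0.05, so reads were recovered. The scaled size was 0.876 to 1.111 times the plain total in the human table. GRCh38, hg38, mm10 and DESeq2 are named, without a role, in the submitters' processing notes. For the aligner, the strand setting and the separation of species, the entry is: not given in the sources used here. Table lengths equalled GENCODE 29 exon lengths for 99.92% of genes.

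Genes at 1 FPKM or more in at least 3 libraries (16029) were tested on log2(FPKM + 1) with limma 3.58.1 in R 4.3.3, by a trended fit of 6 group means over 22 libraries, with Benjamini-Hochberg adjustment over all genes tested and a threshold of 0.05. The fit was tested on simulated data. Figures used Python 3.11.15 and matplotlib 3.10.9. Alternatives were a pseudocount of 0.1, no filter, median-ratio and nuclear-sum rescaling, voom on recovered reads, a replicate block and leaving out libraries. The members and gene lists were chosen with earlier results of these data known. Named with values are all mitochondrial members, succinate dehydrogenase, isoform pairs, members called alike in all treatment comparisons or called in opposite directions, the highest member of each complex and the members with the smallest p between times, and from each list up to 3 genes called in all 4 comparisons. Other genes in the text were chosen after their values were seen. Counts of 0 allow up to 3 reads, and this covers counting error only. Human depth was 10688632 to 19065656 reads and mouse depth 895826 to 5766509 reads per library.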

Additional observations from a re-analysis of the deposited data

Results flagged for a closer look

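In 180 sets of 4 libraries screened for members, 9 held a library far from the other 3, where chance alone flags about 1 set in 20. In NSG tumours at 6 weeks, replicate 3 stood above the others for MT-ATP8 (769 FPKM, others 313 to 323), SDHB (24.5 FPKM, others 16.0 to 17.1), COX4I1 (40.9 FPKM, others 25.2 to 26.2), COX6B1 (112.0 FPKM, others 86.0 to 89.3) and UQCRQ (84.8 FPKM, others 60.3 to 62.5). Without that library, 29 nuclear members fell and 2 rose at 6 weeks in NSG, in place of 24 and 3. In NSG naive tumours, replicate 2 was high for COX7A2 (85.8 FPKM, others 66.2 to 67.9) and COX7B (14.3 FPKM, others 8.55 to 9.20). In hHGF-NSG tumours at 2 weeks, replicate 4 was high for MT-ATP8 (437 FPKM, others 277 to 298) and NDUFA3 (17.4 FPKM, others 14.9 to 15.3).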

How the results depend on the processing

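Of 171 single-gene results, recomputed under every alternative, none changed direction while called: 4765 values kept their side of the threshold, 119 lost a call and 75 gained one. Rescaling to the nuclear FPKM sum moved counts most. It also raised the median of all genes by 0.15 to 0.23. The share of all genes called under it is not given here, so the counts below do not set the members apart. Mitochondrial members called higher became 2 and 4 in hHGF-NSG at 2 and 6 weeks and 7 in NSG at 6 weeks. Nuclear members called higher became 21, 18, 20 and 12 and those called lower 3, 5, 5 and 9 in hHGF-NSG at 2 and 6 weeks and NSG at 2 and 6 weeks, and 1 member was called between 6 and 2 weeks in hHGF-NSG. With no filter, 0 and 1 mitochondrial members rose in hHGF-NSG at 2 and 6 weeks, 0 nuclear members rose in NSG at 2 weeks, and 4 members were called between 6 and 2 weeks in NSG. With voom, 2 mitochondrial members rose in hHGF-NSG and 2 fell in NSG at 2 weeks. A pseudocount of 0.1 called 1 member in the response difference at 6 weeks. The cause of these changes was not tested. The replicate block left 1 nuclear member higher in NSG at 2 weeks and otherwise moved no count by over 1.5 times; same-numbered libraries had a median correlation of -0.02 over 51 pairs, 8 of them above 0.1, so the numbers do not pair the samples.

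As a share of recovered reads, which does not divide by length, the mitochondrial members took 6.12, 6.96 and 8.97% in hHGF-NSG naive, 2-week and 6-week tumours and 5.49, 5.84 and 7.87% in NSG. Over protein-coding genes alone their FPKM share was 25.7% in hHGF-NSG at 2 weeks and 28.9% in NSG at 6 weeks. With medians over members, the gap to nuclear members was 7.97 and 8.29 in hHGF-NSG at 2 and 6 weeks and 8.05 in NSG at 6 weeks, against 7.38 and 7.33 in naive tumours of the same hosts.

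Leaving out 1 library at a time, mitochondrial members called higher ranged from 0 to 2 in hHGF-NSG at 2 weeks (2 without naive replicate 1, 0 without naive replicate 3), from 1 to 4 at 6 weeks (4 without naive replicate 1 or 6-week replicate 2, 1 without naive replicate 3 or 6-week replicate 1 or 3) and from 2 to 4 in NSG at 6 weeks. Those called lower ranged from 0 to 1 in hHGF-NSG at 2 weeks (1 without naive replicate 3) and from 0 to 2 in NSG at 2 weeks (2 without 2-week replicate 3, 1 without hHGF-NSG naive replicate 3). Nuclear members called higher ranged from 4 to 7 and 4 to 11 in hHGF-NSG at 2 and 6 weeks (at 6 weeks 4 without naive replicate 2, 5 without naive replicate 3) and from 0 to 5 and 2 to 4 in NSG (at 2 weeks 0 without naive replicate 3 or 2-week replicate 1, 5 without 2-week replicate 4). Members called between 6 and 2 weeks in NSG ranged from 3 to 12, those called between hosts at 6 weeks from 0 to 1 (1 without hHGF-NSG 6-week replicate 2) and in the response difference at 6 weeks from 0 to 1 (1 without NSG naive replicate 1, NSG 2-week replicate 1 or hHGF-NSG 6-week replicate 2). Without both NSG naive replicate 1 and hHGF-NSG naive replicate 3, chosen after seeing the data, 0 mitochondrial members rose and 1 fell at 2 weeks in hHGF-NSG and 1 rose at 6 weeks. Nuclear members called higher were then 3, 5 and 1 in hHGF-NSG at 2 and 6 weeks and NSG at 2 weeks, and 1 member was called in the response difference at 6 weeks. Each mitochondrial gene had at least 496 reads in every library, whereas NDUFA4L2 had 1 to 13 reads in treated tumours, where depth limits its level.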
